A study of Homo sapiens with 4 samples.

Results

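A set of 9 genes, the partners and inhibitors of the muscle regulator MYOD, were followed: the E protein genes TCF3, TCF4 and TCF12, the ID genes ID1, ID2, ID3 and ID4, and the inhibitor genes MDFI and MSC. They were picked by symbol, 9 of the 39323 genes in the expression tables, and all 9 were found. The RNA came from RD and JR1, established human lines of fusion-negative rhabdomyosarcoma (FN-RMS), a childhood tumor of cells that carry the muscle lineage factors but do not finish muscle differentiation. Each line had been infected with a lentivirus carrying a short hairpin RNA and selected with puromycin: the shSKP2 cells carried 1 hairpin against SKP2 (shSKP2.2), and the shSCR cells a non-targeting hairpin. SKP2 is the substrate-binding subunit of an SCF ubiquitin ligase that marks cell cycle inhibitors for degradation. Both conditions were grown in serum-containing growth medium, and the labels call the shSCR cells WT and the shSKP2 cells SKP2 knockdown. There was 1 poly-A RNA-seq library for each line and condition, 4 libraries in all, so a difference within a line carries no replicate error and was not tested; a test over both lines is given after the members. With a single hairpin the effects of SKP2 loss cannot be told apart from any on other transcripts.

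MYOD binds DNA as a pair with an E protein, at short sites called E boxes (CANNTG), and the pair switches on muscle genes. ID proteins have the helix-loop-helix that makes pairs but lack the basic region that touches DNA, so an E protein held by an ID protein is not free for MYOD. MDFI (I-mfa) binds MYOD and its relatives directly and masks them, and MSC (musculin, MyoR) is a repressor of the same protein class that pairs with E proteins and occupies E boxes. In dividing muscle precursors the inhibitors are typically high, and they decline as cells differentiate.

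The values are TPM, a scale of relative transcript abundance on which each library sums to the same total and each gene is divided by its length, so levels of different genes can be set side by side within a library. Changes are the log2 ratio, shSKP2 over shSCR within a line, of TPM + 1, and the added 1 understates the change of low genes. A gene was tested where its mean reached 1 TPM, 12983 in all, and at least 2-fold is a change of 1 or more on the log2 scale. All 9 genes passed that filter, ID4 with a mean of 1.03 TPM. Short structural RNAs such as 7SL took between 58.6% and 72.1% of the TPM of a library, more with shSKP2 than with shSCR in both lines, and the tested genes as a whole had a median change of -0.27 in RD, against -0.21 in JR1. For this reason changes are also given after removal of these RNAs, where the medians were 0.12 and 0.01. SKP2 itself was 92.84 TPM in RD shSCR, 7.4 in RD shSKP2, 46.47 in JR1 shSCR and 2.72 in JR1 shSKP2, low in both knockdown libraries. Muscle lineage markers summed to between 713.02 and 2538.64 TPM, higher with shSKP2 in both lines, with MYF5 listed at 0. The actin gene ACTC1 was the largest part of this sum in every library and had the largest rise in TPM. Its level was 299.76 TPM in RD shSCR, 584.14 in RD shSKP2, 503.51 in JR1 shSCR and 1741.43 in JR1 shSKP2. Against the sum, PAX7 was lower with shSKP2 in both lines and the desmin gene DES was lower in JR1. The remaining muscle markers, MYF5 apart, were higher in both lines. Haematopoietic markers summed to at most 0.86 TPM, neural markers to 1.71 and endothelial markers to 6.65. Most of the endothelial sum was TEK, at most 6.37 TPM, while PECAM1, CDH5 and VWF reached at most 0.05, 0.02 and 0.38 TPM. Epithelial markers reached at most 5.92 TPM, nearly all of it the tight junction gene CLDN4. CLDN4 was 5.76 and 1.63 TPM in RD, 4.12 and 1.01 in JR1 for shSCR and shSKP2. The list for the kidney line used to package virus summed to between 15.72 and 37.94 TPM, highest in RD shSKP2. Nearly all of it was LIN28B, ZIC2 and PAX2, while the other listed genes, SLC47A1 and WT1, reached at most 0.19 and 0.18 TPM. Whether such cells had a part in the results was not tested. In such bulk samples fewer cells with a transcript and less of it per cell cannot be told apart.

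The sequences just before the start sites of ID1, ID2, ID3 and MDFI, the members with the lowest changes, are shown so that their start regions can be compared. Each is the 250 bases upstream of a RefSeq start on GRCh38.p14, 5′ to 3′ on the gene's own strand, at chr20:31605039-31605288 (plus strand) for ID1, chr2:8681806-8682055 (plus) for ID2, chr1:23559502-23559751 (minus) for ID3 and chr6:41636768-41637017 (plus) for the outermost of the 2 starts of MDFI. Capitals mark any E box (CANNTG), the SMAD1 and SMAD5 site GGCGCC, the TATA box word TATAAA and the CCAAT box word CCAAT, searched on both strands; the last 2 words were chosen after the sequences had been seen.
ID1: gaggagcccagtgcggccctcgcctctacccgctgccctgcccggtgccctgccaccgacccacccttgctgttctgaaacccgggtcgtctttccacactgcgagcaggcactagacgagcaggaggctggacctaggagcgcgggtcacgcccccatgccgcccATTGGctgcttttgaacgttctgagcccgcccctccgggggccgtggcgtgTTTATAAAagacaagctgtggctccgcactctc
ID2: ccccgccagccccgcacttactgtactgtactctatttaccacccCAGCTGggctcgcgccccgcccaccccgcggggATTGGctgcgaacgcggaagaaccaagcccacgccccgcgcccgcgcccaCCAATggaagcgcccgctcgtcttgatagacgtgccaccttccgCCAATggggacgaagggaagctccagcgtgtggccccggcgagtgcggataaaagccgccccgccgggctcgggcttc
ID3: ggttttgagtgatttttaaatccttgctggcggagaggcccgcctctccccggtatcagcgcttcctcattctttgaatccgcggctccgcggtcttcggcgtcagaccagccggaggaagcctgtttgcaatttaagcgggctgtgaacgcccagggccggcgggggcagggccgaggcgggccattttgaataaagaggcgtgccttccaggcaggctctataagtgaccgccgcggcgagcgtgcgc
MDFI: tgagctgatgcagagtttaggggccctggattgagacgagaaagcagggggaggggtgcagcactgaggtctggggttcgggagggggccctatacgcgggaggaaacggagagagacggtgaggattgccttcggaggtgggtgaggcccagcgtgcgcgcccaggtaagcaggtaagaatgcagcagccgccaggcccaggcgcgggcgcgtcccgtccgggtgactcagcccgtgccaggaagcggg
ID1 carried TATAAA 31 bases before its start, overlapping the same word on the other strand at 33 bases, and a CCAAT box at 84 bases. ID2 carried the E box preferred by MYOD and E protein pairs, CAGCTG, at 205 bases, and 3 CCAAT boxes at 172, 122 and 78 bases. The window of ID4, which is not printed, held CAGCTG at 21 bases, TATAAA at 29 bases and a CCAAT box at 220 bases. None of the words was in the window of ID3 or of TCF3, nor in the printed window of MDFI, and the other MDFI window held 1 GGCGCC at 177 bases. Of 35116 windows of this length in the RefSeq table, 4911 held CAGCTG, and the shares with the other words were 61.8% for any E box, 16.4% for GGCGCC, 10.7% for TATAAA and 32.0% for CCAAT. Among the alternative starts, 5 of 10 windows of TCF4 and 2 of 5 of TCF12 held an E box, and none of them CAGCTG. Another TCF12 window held GGCGCC at 124 and 96 bases. A word is a match of letters and not a measured binding site.

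TCF3 and TCF4 hardly differed between shSCR and shSKP2, and TCF12 was lower with shSKP2 in RD on the deposited scale. TCF3 encodes E12 and E47, the classical partners of MYOD. Its gene lies on the minus strand of chromosome 19 (GRCh38, 1609292 to 1652615). TCF3 was 64.09 TPM in RD shSCR, 59.04 in RD shSKP2, 44.18 in JR1 shSCR and 44.02 in JR1 shSKP2. Both RD libraries were above both JR1 libraries, and the knockdown library of each line lay beside its control. Its log2 change in RD was -0.12, against -0.01 in JR1, and these became 0.30 and 0.26 after removal of the structural RNAs, so its sign depended on the scaling.

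TCF4 encodes E2-2, an E protein that shares its symbol with an alias of the WNT effector TCF7L2 but is another gene, and lies on the minus strand of chromosome 18 (55222185 to 55635957). TCF4 was 25.56 TPM in RD shSCR, 23.32 in RD shSKP2, 18.24 in JR1 shSCR and 18.09 in JR1 shSKP2. It had the same order of libraries as TCF3, and the profiles of TCF3 and TCF4 were the closest of any pair of the 9 genes, with a Euclidean distance of 0.064 between their centred log2 levels. The log2 change in RD was -0.13, against -0.01 in JR1, and with structural RNAs removed the values were 0.29 and 0.25.

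TCF12 encodes HEB, the third E protein, from the plus strand of chromosome 15 (56918090 to 57292595). TCF12 was 20.96 TPM in RD shSCR, 15.62 in RD shSKP2, 16.45 in JR1 shSCR and 16.68 in JR1 shSKP2. Here the RD control stood above the other 3 libraries, which spanned about 1 TPM. The change in RD was -0.40, against 0.02 in JR1. Once the structural RNAs were removed the RD value was -0.00 and the JR1 value 0.28. TCF3 held most of the E protein TPM, between 55.9% and 60.3% of it in the 4 libraries, TCF4 between 23.0% and 23.8% and TCF12 between 15.9% and 21.2%. TPM here are sums over the transcripts of a gene, so the splice forms E12 and E47 were not separated.

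All 4 ID genes were lower with shSKP2 than with shSCR in both lines on the deposited scale. So were 9737 of the 12983 tested genes in RD and 8941 of them in JR1. ID1 and ID3 carried nearly all of the ID transcripts, 96.3% to 98.1% of the summed ID TPM. ID1 lies on the plus strand of chromosome 20 (31605289 to 31606510). Its level was 391.2 TPM in RD shSCR, 210.41 in RD shSKP2, 196.32 in JR1 shSCR and 64.21 in JR1 shSKP2. The RD control was the highest and the JR1 knockdown by far the lowest, while the RD knockdown and the JR1 control were close to each other. ID1 was 1.86-fold lower with shSKP2 in RD and 3.06-fold lower in JR1. The log2 change in RD was thus -0.89, against -1.60 in JR1, and they were -0.47 and -1.34 with structural RNAs removed.

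ID3, on the minus strand of chromosome 1 (23557926 to 23559501), is like ID1 a direct target of BMP signaling in many cells. ID3 was 342.81 TPM in RD shSCR, 149.9 in RD shSKP2, 247.58 in JR1 shSCR and 50.12 in JR1 shSKP2. Both control libraries were above both knockdown libraries, an order also seen for ID4, MDFI and MSC but not for ID1 or ID2. How many of all tested genes have this order was not counted. The level was 2.29-fold lower in RD and 4.94-fold lower in JR1. Its change of -1.19 in RD had 583 of the 12983 tested genes below it, and its change of -2.28 in JR1 had 78. With structural RNAs removed the changes were -0.77 and -2.03, so the RD value no longer reached 2-fold.

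ID2, on the plus strand of chromosome 2 (8682056 to 8684461), also binds the RB family of cell cycle regulators. It was 23.34 TPM in RD shSCR, 11.4 in RD shSKP2, 7.23 in JR1 shSCR and 3.3 in JR1 shSKP2. Even the RD knockdown was above the JR1 control. The change was nearly the same in both lines, -0.97 in RD and -0.94 in JR1, just short of 2-fold on the TPM + 1 scale, while the plain TPM ratios were 0.488 and 0.456. With structural RNAs removed the changes were -0.60 and -0.82.

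ID4, on the plus strand of chromosome 6 (19837370 to 19842197), is the ID gene best known from neural and testis development and was close to the filter in every library. It was 1.11 TPM in RD shSCR, 0.59 in RD shSKP2, 1.34 in JR1 shSCR and 1.07 in JR1 shSKP2. The controls were above the knockdown libraries by less than 1 TPM. Its changes were -0.41 in RD and -0.18 in JR1, and the JR1 value turned to 0.04 when changes were centred on the median of all tested genes.

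**Figure D1:**
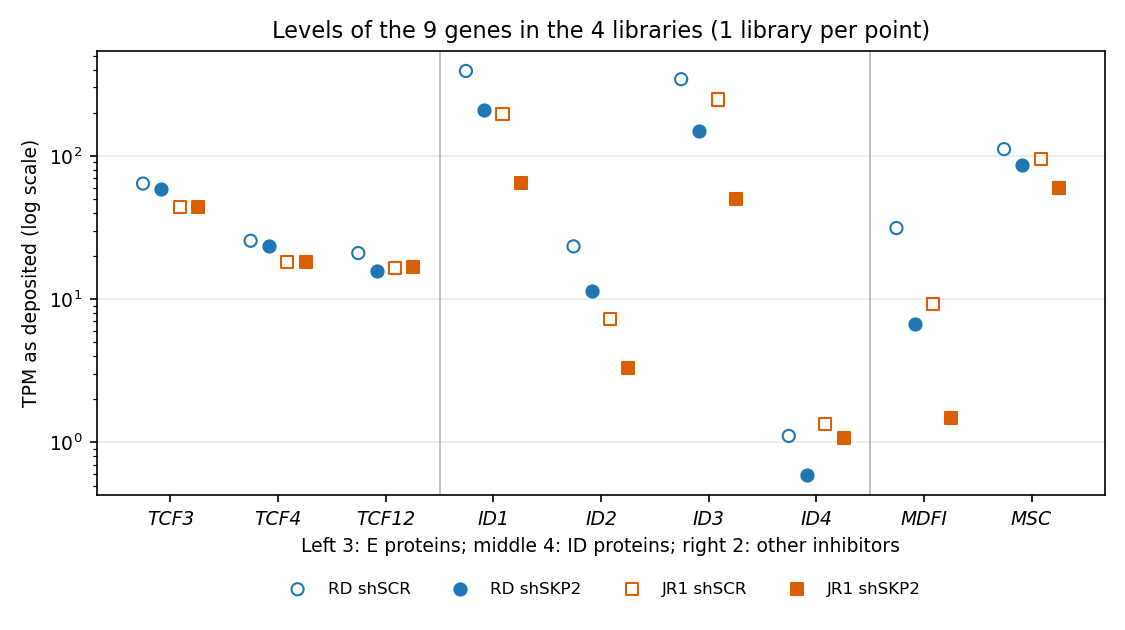
Levels of the 9 genes in TPM as deposited (log axis), with 1 point for each of the 4 libraries; open symbols are shSCR and filled symbols shSKP2, circles RD and squares JR1. TCF3 stays between 44.02 and 64.09 TPM, whereas ID3 runs from 342.81 down to 50.12 and MDFI from 31.33 down to 1.47.

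MDFI had the lowest change of the 9 genes in RD and the next to lowest in JR1. The gene lies on the plus strand of chromosome 6 (41637018 to 41654246). MDFI was 31.33 TPM in RD shSCR, 6.75 in RD shSKP2, 9.21 in JR1 shSCR and 1.47 in JR1 shSKP2. Both knockdown libraries were below both controls. The level was 4.64-fold lower in RD and 6.27-fold lower in JR1, and on the log2(TPM + 1) scale the changes were almost equal, -2.06 and -2.05. Of the tested genes, 72 had a lower change than MDFI in RD and 119 in JR1. With structural RNAs removed the changes were -1.75 and -2.18. MDFI also stands in a stemness gene list that the study drew from these libraries, so its direction there is not independent evidence.

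MSC, on chromosome 8 (71841560 to 71844412), was the most abundant inhibitor outside the ID family. It was 111.35 TPM in RD shSCR, 86.08 in RD shSKP2, 94.93 in JR1 shSCR and 59.45 in JR1 shSKP2. Controls were above knockdown libraries, with a much smaller span than ID1 or ID3. The RD change was -0.37 and the JR1 change -0.67. In RD its sign depended on the scaling, since it was 0.05 with structural RNAs removed, when the JR1 value was -0.41. The antisense gene MSC-AS1 overlaps MSC and was 3.47 TPM in RD shSCR, 2.8 in RD shSKP2, 4.85 in JR1 shSCR and 5.32 in JR1 shSKP2. The library kit keeps strand, but the strand setting of the quantification is not given in the sources used here, so reads shared by both genes cannot be told apart.

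Counted together, 2 of the 9 genes (ID3 and MDFI) were at least 2-fold lower with shSKP2 in RD, where 7.37% of all tested genes were that much lower and 1.08% that much higher. In JR1 it was 3 of 9 (ID1, ID3 and MDFI), with 9.05% of all tested genes that much lower and 1.78% higher. None of the 9 was at least 2-fold higher in either line. The median change of the 6 inhibitor genes was -0.93 in RD and -1.27 in JR1, below the medians of all tested genes given above, and that of the 3 E protein genes was -0.13 and -0.01, above them. With structural RNAs removed, 1 of the 9 (MDFI) was at least 2-fold lower in RD, with 3.46% of 15220 tested genes lower and 4.4% higher, and the 3 in JR1 were ID1, ID3 and MDFI again, with 7.49% lower and 4.91% higher. The median of the inhibitors was below that of the E proteins under each scaling and in both lines. A scaling shifts both groups by nearly the same amount, so their order could hardly differ between scalings. The only inhibitor with a positive value was MSC in RD with structural RNAs removed or ID4 in JR1 with centring.

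The knockdown was then tested over both lines, with a fit of line plus condition across all tested genes (limma, Benjamini-Hochberg adjusted p), in which RD and JR1 stand as its replicates and 1 residual degree of freedom is left. On the deposited scale MDFI fell by 2.05 ± 0.14 on the log2 scale (moderated SE, adjusted p = 0.000785), ID3 by 1.73 ± 0.25 (adjusted p = 0.00515), ID1 by 1.24 ± 0.19 (adjusted p = 0.00609) and ID2 by 0.95 ± 0.13 (adjusted p = 0.00455). Both this SE and the p use a variance drawn toward that of all tested genes at a similar level. Neither therefore measures how closely the lines matched for a given gene. The lines were far apart for ID3 (RD -1.19, JR1 -2.28) and nearly equal for MDFI (RD -2.06, JR1 -2.05). MSC fell by 0.52 ± 0.14 (adjusted p = 0.0338), a call lost with structural RNAs removed (adjusted p = 0.408), while the other 4 calls held (adjusted p between 0.00182 and 0.0246). ID4 did not pass (adjusted p = 0.344), nor did TCF3 (0.740), TCF4 (0.709) or TCF12 (0.371). Thus 5 of the 9 genes were called lower and none higher, where 26.6% of all tested genes were called lower and 3.84% higher. Without structural RNAs it was 4 of 9, beside 9.27% lower and 9.69% higher. MYOG rose by 0.92 ± 0.12 (adjusted p = 0.00418), and MYOD1 passed only with structural RNAs removed or with centring (adjusted p = 0.216 as deposited, 0.0162 and 0.0409). The fit weighs the lines against each other, so a change in 1 line alone was not tested by it.

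**Figure D2:**
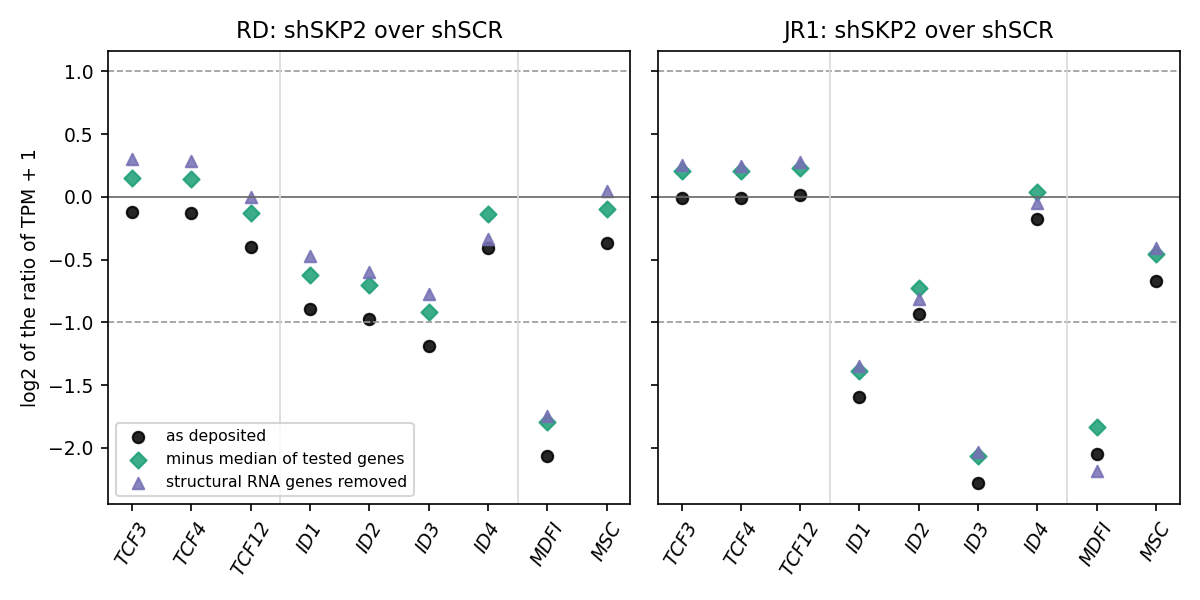
Change of each gene in RD (left) and JR1 (right) as log2 of the ratio of TPM + 1, shSKP2 over shSCR, under 3 scalings shown by symbol; dashed lines mark 2-fold, and each condition has 1 library. MDFI stays below -1 in both lines under all 3 scalings, and the E protein genes lie between -0.40 and 0.30.

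Ratios of genes within a library do not depend on the structural RNAs, so the balance of partners and inhibitors was computed from summed TPM. The E protein sum was 110.61 TPM in RD shSCR, 97.98 in RD shSKP2, 78.87 in JR1 shSCR and 78.79 in JR1 shSKP2. The sum of the 6 inhibitors was 901.14 TPM in RD shSCR, 465.13 in RD shSKP2, 556.61 in JR1 shSCR and 179.62 in JR1 shSKP2. Inhibitor transcripts outnumbered E protein transcripts in every library, by 8.15-fold in RD shSCR and by 2.28-fold in JR1 shSKP2 at the extremes. The ratio of E protein to inhibitor TPM was 0.123 in RD shSCR and 0.211 in RD shSKP2, a 1.72-fold higher value with shSKP2. In JR1 it was 0.142 in shSCR and 0.439 in shSKP2, a 3.10-fold higher value. The controls of both lines were close to each other, and the knockdown libraries were apart.

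The make-up of the inhibitor pool differed as well. MSC made up 12.4% of inhibitor TPM in RD shSCR, 18.5% in RD shSKP2, 17.1% in JR1 shSCR and 33.1% in JR1 shSKP2, highest where ID1 and ID3 were lowest. This is a share of a sum made up mostly of ID1 and ID3, and the level of MSC itself was lowest in JR1 shSKP2, at 59.45 TPM. ID3 held a larger share than ID1 in JR1 shSCR only, 44.5% against 35.3%, and in the other 3 libraries ID1 held more than ID3. Set against MYOD1, ID transcripts were 8.72-fold its TPM in RD shSCR, 3.97-fold in RD shSKP2, 4.50-fold in JR1 shSCR and 0.906-fold in JR1 shSKP2, the single library in which they were fewer. E protein TPM per MYOD1 TPM was 1.27 in RD shSCR, 1.04 in RD shSKP2, 0.784 in JR1 shSCR and 0.601 in JR1 shSKP2, lower with shSKP2 in both lines, in each of which MYOD1 was higher. These are ratios of transcripts and give no measure of protein or of pairing.

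**Figure D3:**
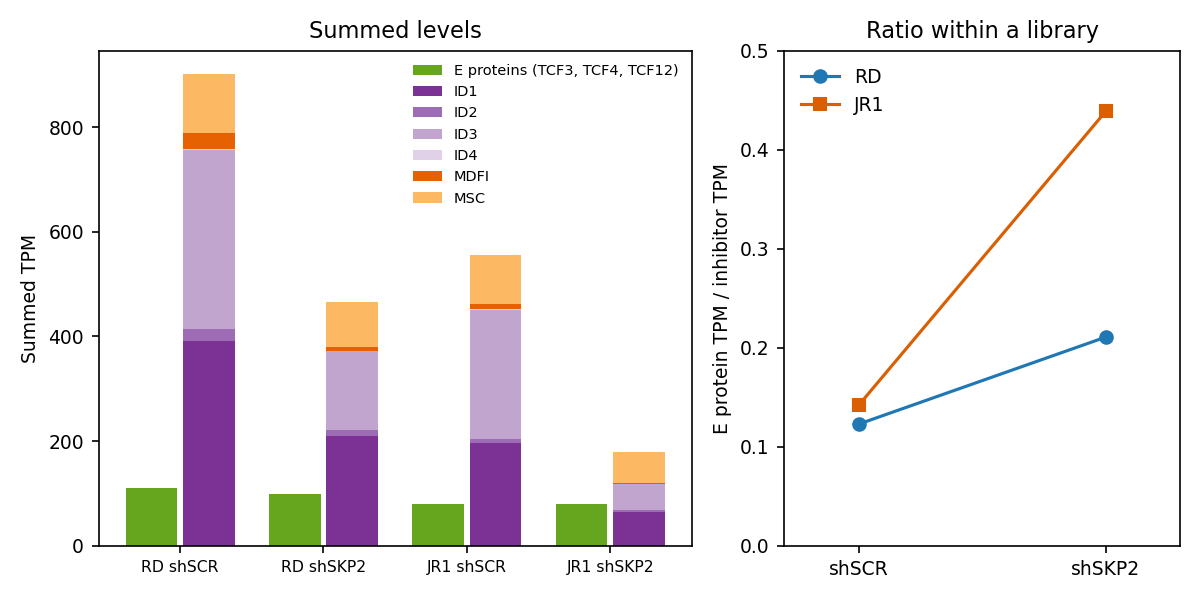
Left, summed TPM of the 3 E protein genes (green) and of the 6 inhibitor genes (stacked by gene) in each of the 4 libraries. Right, the ratio of E protein to inhibitor TPM, which is 0.123 and 0.211 in RD and 0.142 and 0.439 in JR1 for shSCR and shSKP2.

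The myogenic factors that use these partners were also read. MYOD1 was 86.98 TPM in RD shSCR, 93.84 in RD shSKP2, 100.64 in JR1 shSCR and 131.08 in JR1 shSKP2. MYOG, the factor that drives late differentiation, was 31.57 TPM in RD shSCR, 58.39 in RD shSKP2, 53.97 in JR1 shSCR and 107.18 in JR1 shSKP2. Both were higher with shSKP2 in each line, MYOD1 by 0.11 and 0.38 and MYOG by 0.87 and 0.98 on the log2 scale in RD and JR1. MYF5 was listed at 0 in all 4 libraries and MYF6 reached at most 0.5 TPM, so MYOD1 and MYOG were the myogenic partners measured above the filter. Of the muscle markers, PAX7, a factor of muscle stem cells, was at least 2-fold lower in both lines, 10.75 and 3.36 TPM in the RD control and knockdown and 4.84 and 1.16 in those of JR1, and ACTC1, a sarcomeric actin, was 299.76 and 584.14 TPM in RD and 503.51 and 1741.43 in JR1.

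**Figure D4:**
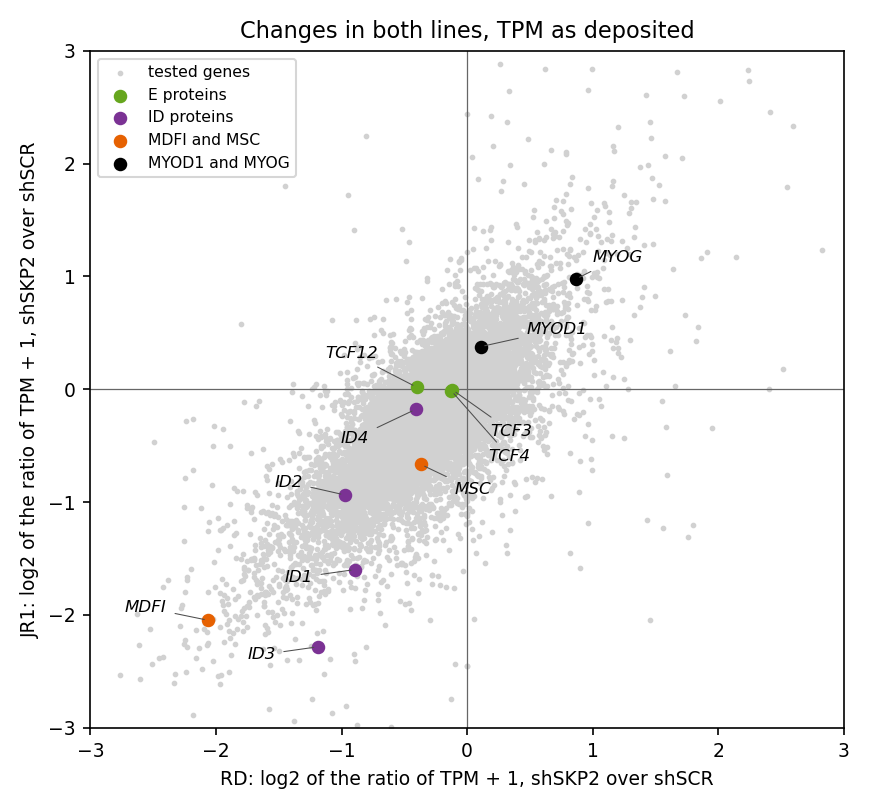
Change in RD (horizontal axis) against change in JR1 (vertical axis), both log2 of the ratio of TPM + 1, shSKP2 over shSCR, for tested genes (grey; 78 of 12983 lie outside the axes) with the 9 genes, MYOD1 and MYOG in color. The E protein genes sit near the origin, MDFI at about the same value on both axes, and ID1 and ID3 lower in JR1 than in RD.

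The lines were next compared within a condition. In shSCR, 2 of the 9 genes were at least 2-fold higher in RD than in JR1, ID2 by 1.56 and MDFI by 1.66 on the log2 scale, where 6.5% of all tested genes were that much higher in RD and 3.44% that much higher in JR1. ID1 was 0.99 higher, just under the limit, and no member was at least 2-fold higher in JR1. In shSKP2 the number was 4 of 9, ID1 by 1.70, ID2 by 1.53, ID3 by 1.56 and MDFI by 1.65, with 5.39% of tested genes higher in RD and 2.7% higher in JR1. For ID2 and MDFI the gap between the lines was almost the same in both conditions on this scale, while for ID3 it was 0.47 in shSCR. Without structural RNAs the MDFI gap was 1.43 in shSCR and 1.87 in shSKP2, and the ID2 gap 1.35 and 1.56. Put as a difference of changes, RD minus JR1, the value was 1.09 for ID3 and 0.71 for ID1, against -0.04 for ID2 and -0.01 for MDFI as deposited. With 1 library each, this difference between the lines was not tested. E protein genes differed little between the lines, by 0.33 to 0.53 in shSCR, beside a median of 0.23 for all tested genes.

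ID genes are textbook targets of BMP signaling, in which BMP ligands bind receptors that activate SMAD1 and SMAD5 with SMAD4, so the genes of this pathway were read as a list of 40, of which 27 were tested. On the deposited scale 6 were higher and 21 lower with shSKP2 in RD, 10 higher and 17 lower in JR1, with medians of -0.30 and -0.24, beside -0.27 and -0.21 for all tested genes, of which 9737 of 12983 were lower in RD and 8941 in JR1. In RD 1 was at least 2-fold higher and 3 lower, where 1.08% and 7.37% of all tested genes were, and in JR1 1 was higher and 5 lower, beside 1.78% and 9.05%. With structural RNAs removed 33 were tested, with 18 higher and 15 lower in RD and 15 higher and 18 lower in JR1. Of all 15220 tested genes on that scale, 9243 were higher in RD and 7764 in JR1. Among ligands, BMP4 was 1.78 and 1.19 TPM in RD and 15.59 and 5.55 in JR1 for shSCR and shSKP2, a change of -1.34 in JR1, BMP2 did not exceed 0.08 TPM, and GDF11, a ligand of the same superfamily, was 8.99 and 16.26 TPM in RD and 12.22 and 17.47 in JR1, higher with shSKP2 in both. Among receptors, BMPR2 was 14.91 and 6.25 TPM in RD and 7.98 and 4.69 in JR1, and the co-receptor ENG (endoglin) 44.51 and 23.45 in RD and 37.15 and 17.03 in JR1, whereas the receptor ACVR2A was 5.41 and 6.51 TPM in RD and 4.11 and 8.76 in JR1. HJV (hemojuvelin), a BMP co-receptor of muscle and liver, had the list's highest change in both lines, 1.28 and 1.25. Its level was 0.4 and 2.39 TPM in RD and 2.99 and 8.48 in JR1.

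The intracellular genes of the list varied as well. SMAD6, an inhibitory SMAD, was 6.16 and 2.81 TPM in RD and 2.22 and 0.55 in JR1 for shSCR and shSKP2. SMAD7, the other inhibitory SMAD, was 9.23 and 3.56 TPM in RD and 11.26 and 6.43 in JR1, with the list's lowest change in RD, -1.17. ATOH8, a class II factor of the MYOD protein class, was 7.4 and 3.19 TPM in RD and 3.16 and 0.6 in JR1, just past 2-fold in RD and with the list's lowest change in JR1, -1.38. The transducers SMAD1 and SMAD5 had changes of -0.66 and -0.30 in RD and of -0.24 and -0.01 in JR1. NOG (noggin), a secreted BMP antagonist named here after its values were seen, was 148.33 and 96.75 TPM in RD and 58.65 and 76.49 in JR1, lower with shSKP2 in RD and higher in JR1. Whether any of these genes had a part in the ID values was not tested.

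**Figure D5:**
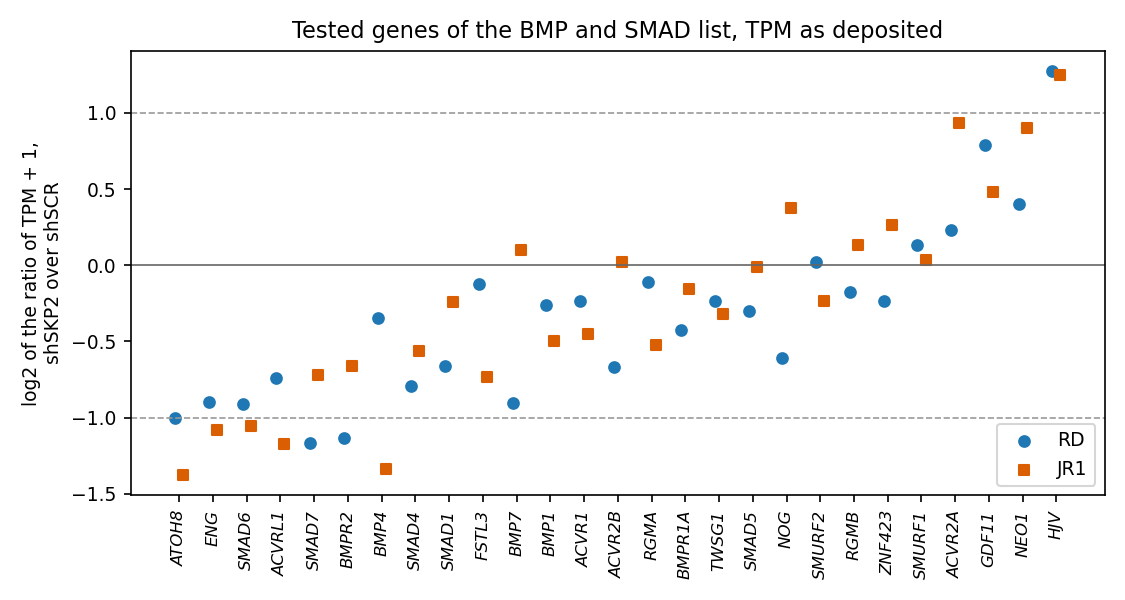
Change with shSKP2 (log2 of the ratio of TPM + 1) of the 27 tested genes of the BMP and SMAD list in RD (circles) and JR1 (squares), ordered by the mean of both lines; dashed lines mark 2-fold. ATOH8 lies at or below the lower line in both lines and HJV above the upper line in both, at 1.28 and 1.25.

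Other partners of E proteins and cofactors of MYOD complete the picture. Of 24 other class II factors, which pair with E proteins as MYOD does, only 4 were tested: ATOH8, SCX, TAL2 and TCF15. TAL2 was 25.51 and 16.28 TPM in RD and 13.31 and 17.05 in JR1 for shSCR and shSKP2, changes of -0.62 and 0.33, and the 4 had medians of -0.43 and -0.06. SCX (scleraxis), a tendon factor, was 19.95 and 16.76 TPM in RD and 29.99 and 29.79 in JR1, and TCF15 did not exceed 1.82 TPM. MYOD1 at 86.98 to 131.08 TPM was thus well above each of them.

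Of the 20 MYOD coactivators listed, 19 were tested, with a median RD change of -0.14 and a median JR1 change of 0.06. In RD 8 were higher and 11 lower, in JR1 11 higher and 8 lower, where 3199 and 4011 of the 12983 tested genes were higher. On the scale without structural RNAs all 20 were tested and 16 and 18 were higher, beside 9243 and 7764 of 15220 tested genes. MEF2C, a MADS-box partner of MYOD in late muscle genes, had the list's highest change in both lines, 0.62 and 2.84. Its level was 0.98 and 2.05 TPM in RD and 1.76 and 18.74 in JR1. MEF2A, its relative, was 7.94 and 10.51 TPM in RD and 9.39 and 20.96 in JR1. The lowest change was that of CARM1, an arginine methyltransferase, -0.60 in RD and -0.45 in JR1. Its level was 51.54 and 33.58 TPM in RD and 42.15 and 30.57 in JR1.

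Of 22 corepressors and competing factors, 16 were tested, with medians of -0.43 in RD and -0.09 in JR1, beside -0.27 and -0.21 for all tested genes. In RD 2 were higher and 14 lower, and in JR1 4 were higher and 12 lower, where 9737 and 8941 of the 12983 tested genes were lower. On the scale without structural RNAs 18 were tested, with 8 higher and 10 lower in RD and 11 higher and 7 lower in JR1. Of all 15220 tested genes on that scale, 9243 were higher in RD and 7764 in JR1. HES1, a Notch target and repressor of the same protein class, was 8.3 and 1.21 TPM in RD and 17.42 and 3.14 in JR1, changes of -2.07 and -2.15. BHLHE40 (DEC1), a repressor that binds E boxes, was 19.59 and 7.46 TPM in RD and 46.7 and 13.98 in JR1, changes of -1.28 and -1.67. As deposited, these were the list's 2 genes at least 2-fold lower, in both lines. That much lower were 7.37% of all tested genes in RD and 9.05% in JR1. The highest change was that of SNAI2 (Slug), which competes with MYOD for E boxes, at 0.39 and 0.72. MDFIC, the relative of MDFI, did not exceed 0.42 TPM.

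The genes whose profiles over the 4 libraries were closest to each member were searched among 8851 tested genes of at least 5 TPM, by the Euclidean distance of centred log2(TPM + 1). Closest to ID2 were GTSE1, KIF11 and KIF18B, genes of mitosis, at distances of 0.024, 0.080 and 0.083. GTSE1 was 25.57 TPM in RD shSCR, 12.45 in RD shSKP2, 8.12 in JR1 shSCR and 3.68 in JR1 shSKP2, close to ID2 in every library. Closest to MDFI were the histone genes H3C11, H1-3 and H3C1, at 0.160, 0.168 and 0.197. Closest to ID1 were PCNA-AS1, APOBEC3B and BUB1, at 0.169 to 0.214, and to ID3 PTGES, FSTL1 and PIM1, at 0.296 to 0.386, so ID3 had the least close neighbors of the 9.

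Among the E proteins, TCF3 was closest to MAD2L2, LOC93622 and PFDN4, TCF4 to NT5C3B, ZNF131 and RSRC2, and TCF12 to SLC25A6, which is listed once for each sex chromosome with equal values, and ASXL2. Their distances were between 0.010 and 0.038. ID4 was closest to TTC4, LYRM1 and WARS2-AS1, and MSC to SLX1A-SULT1A3, ERICH1 and JMJD4, at distances between 0.010 and 0.052. With 4 libraries many genes share a profile, and the likeness is a description of these libraries.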

How the data were processed

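RNA-seq libraries of both FN-RMS lines, with either hairpin, were analysed, 1 library per line and condition. The authors prepared poly-A libraries with a directional kit, sequenced pairs of 150 bases, aligned them to GRCh38 with STAR 2.7.9a and computed the deposited TPM with RSEM 1.3.2; the annotation release and strand setting are not given in the sources used here. TPM keep no read counts, so depth and counting error are unknown, and they carry 2 decimals. With 1 library per line and condition a change within a line has no test. In a fit added after the values had been seen, log2(TPM + 1) of all tested genes was modelled with limma 3.58.1 (R 4.3.3) as line plus condition, with a trended variance and Benjamini-Hochberg adjustment; the lines stand as the replicates of the knockdown, and 1 residual degree of freedom is left beside a prior of 5.38.

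Samples were grouped by title. Changes were log2 of the ratio of TPM + 1, for genes whose mean reached 1 TPM, and a 2-fold limit was used for counts. In the second scaling 657 structural RNA genes, picked by symbol, were removed and TPM rescaled to 1e+06. Named genes were the 9 members, SKP2, the myogenic factors, the extreme genes of each list and those past 2-fold in both lines in 1 direction, overlapping transcripts above 1 TPM, and the 3 closest profiles per member. BMP2, BMP4, GDF11, BMPR2, ENG, ACVR2A, SMAD1, SMAD5, SMAD6, NOG, MEF2A, SCX, MDFIC and the marker genes were named outside this rule, after their values were seen. Members and lists were chosen with earlier results of these data known. Gene positions are those of the deposited tables; for 60.9% of 36588 symbols in the RefSeq table they had the same start and end. Promoter windows came from RefSeq (GRCh38.p14), and those of 8 of the 9 members were used. Alternatives were a pseudocount of 0.1, centring, structural RNA removal, other filters and limits, and other ratio definitions. The methods were run on simulated data with planted changes, equal in both lines for the fit. Such data do not check the calls of genes whose changes differ between the lines. Scripts ran in Python 3.11.15 (matplotlib 3.10.9, numpy 2.4.6, pandas 2.3.3).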

Additional observations from a re-analysis of the deposited data

Results flagged for a closer look

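Each result here moved in opposite directions with shSKP2 in RD and in JR1, with 1 library per line and condition, and the difference between the lines was not tested. Differences are RD minus JR1, on the log2 scale of TPM as deposited.

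Of the 9 genes, TCF12 was the one that met this, with an RD change of -0.40 and a JR1 change of 0.02, a difference of -0.42. MSC-AS1, the transcript antisense to MSC, had -0.23 and 0.11, a difference of -0.35. NOG, the BMP antagonist, had -0.61 and 0.38, a difference of -0.99. TAL2, a class II partner of E proteins, had -0.62 and 0.33, a difference of -0.95. DES, the muscle intermediate filament gene desmin, was 39.27 and 43.41 TPM in RD and 51.31 and 35.97 in JR1, a difference of 0.64. The median of the MYOD coactivator list was -0.14 and 0.06, a difference of -0.20. With structural RNAs removed, the medians of that list were 0.32 and 0.36, the same direction in both lines, as were the changes of MSC-AS1 (0.10 and 0.38). NOG (-0.19 and 0.64), TAL2 (-0.22 and 0.61) and DES (0.56 and -0.25) still had opposite signs. For TCF12 the RD value was then -0.00, no change, beside 0.28 in JR1, and its deposited JR1 value was small as well.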

How the results depend on the processing

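All 216 alternative values came from recomputing the same 4 libraries, and 197 of them kept the call or lay within 1.5-fold of the value reported, although small changes could turn sign: with structural RNAs removed, the medians of the coactivator and BMP lists in RD became 0.32 and 0.079 and that of the corepressor list in JR1 0.17. The changes of ID1, ID2, ID3 and MDFI, the members with the lowest changes, were below 0 in both lines under all 4 settings tried, 32 of 32 values. Since these genes were picked by their changes and the settings reuse the same libraries, this is a check of processing only. The number of members at least 2-fold lower in RD, 2 as reported, was 1 with centring and 1 with structural RNAs removed, MDFI each time, since ID3 then changed by -0.92 and -0.77, and 4 with a limit of 1.5-fold, where JR1 had 5 in place of 3. With a pseudocount of 0.1 it was 3 in RD and 4 in JR1, ID2 being added in both. The change of the E protein to inhibitor ratio stayed between 0.70 and 0.85 in RD and between 1.29 and 1.93 in JR1 over all definitions. Its level did not: as a difference of mean log2 levels in place of summed TPM, it was 0.079 in RD shSKP2 and 0.95 in JR1 shSKP2, above 0 where the log2 ratio of sums was -2.25 and -1.19. By construction that mean gives ID4 the weight of ID1. In the fit over both lines, with the line as a block, 5 members were lower as deposited and with a pseudocount of 0.1, and 4 with centring or structural RNAs removed, where MSC was lost (limma adjusted p = 0.199 and 0.408). No library was left out, since each line and condition has 1. Depth is unknown, so values near 1 TPM, such as those of ID4, carry an unknown error.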
